A study of Thlaspi arvense with 6 samples.

Results

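The loci described here are those of the pennycress (Thlaspi arvense) nectary whose best Arabidopsis match is described with the word auxin or indole-3-acetic acid. Contigs of the assembled transcriptome were summed over the predicted pennycress protein they matched, each such locus took the description of its most abundant contig, and 69 of 12335 loci met this rule. They were 7 PIN and PILS carriers, 2 other transport loci (a BIG-like and an AUX1-like protein), 9 GH3 enzymes, 9 Aux/IAA repressors, 14 auxin response factors (ARFs), 13 SAUR-like loci and 15 others, among them 5 receptors. The 69 loci had 65 distinct Arabidopsis matches, and all 69 were above 0 in all 6 samples. At 6 of the loci the summed contigs matched several Arabidopsis loci. Gene names below are those of the Arabidopsis match.

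RNA-seq had been run on nectaries dissected by hand from flowers of pennycress cultivar MN108, with 3 samples of immature nectaries and 3 of mature nectaries. Immature nectaries, which do not yet secrete, came from flowers equivalent to Arabidopsis stages 11 to 12, and mature, secreting nectaries from stages 14 to 15. All plants were about 40 days old, and the labels name no transgene and no treatment. Each sample pooled about 100 nectaries according to the labels (the study's methods give a different number), and the samples of a stage came from separate sets of plants.

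Auxin is moved between cells by influx carriers of the AUX1 family and by efflux carriers of the PIN family, whereas PILS carriers sit on the endoplasmic reticulum. In the nucleus, auxin joins F-box receptors (TIR1 and the AFBs) to Aux/IAA repressors, which are then degraded, and ARFs are released to act on target genes. Aux/IAA, GH3 and SAUR genes are the classical early auxin-response genes of plants, and in Arabidopsis flowers ARF6 and ARF8 are required for nectary growth and flower maturation.

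Levels are normalized read counts per locus, summed over its contigs, with the authors' upper-quartile scaling. Because longer transcripts gather more reads and lengths were not used, levels are compared between stages and not between loci. The deposited totals were 10572166 to 22709136 normalized counts per sample, of which ribosomal RNA took 12.6 to 62.9%, the highest share being in mature replicate 2. In that sample the smallest step between values was about 1.95 normalized counts, so its low values are the coarsest. Of the markers listed for the nectary, 5 of 5 were found, and their sum was 74079 to 119815 in immature and 388038 to 433777 in mature samples. Of 16 pollen and anther markers 5 were found, and all 5 were higher in mature samples, with sums of 225 to 392 against 2559 to 20270. Their levels in mature replicate 1 were 3.79 to 8.77 times those in mature replicate 2. The lowest of these ratios was that of ANX2 alone, and the other markers were at 6.39 to 8.77. Of 6 phloem markers 4 were found, and 3 of these were lower in mature samples, with sums of 585 to 1234 against 143 to 184. Other listed markers of stomata, carpels and xylem gave 2 loci of 17 genes (FAMA and SHP1, both lower in mature samples). None of the markers found was at 0 in any sample, and listed markers that were not found were not analysed here.

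Between the stages, 27 auxin-related loci were higher and 18 were lower in mature nectaries, and 17 did not pass the test, out of 62 that reached a mean of 100 normalized counts in either stage (limma, Benjamini-Hochberg adjusted p under 0.05 over 11780 loci). Over all loci tested the shares called were 28.4% higher and 35.9% lower, 64.3% in either direction, against 43.5%, 29.0% and 72.6% of the auxin-related loci. The median log2 fold change of the 62 loci was 0.31, and that of all loci tested was -0.09. Without mature replicate 1 these medians were 0.18 and -0.18, and without mature replicate 2 or 3 the median of the auxin-related loci was 0.59 or 0.50. Changes of more than 2-fold were called for 20 loci that rose and 11 that fell, where all loci tested gave 13.8% and 23.0%. The stages did not overlap at 45 of the 62 loci, 27 with the mature samples higher and 18 with them lower. Over all loci tested 70.1% showed no overlap, 30.9% with the mature samples higher and 39.1% with them lower. The samples are bulk tissue, in which fewer cells of a type and less RNA per cell cannot be told apart.

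The filter admits a locus through whichever stage is high. Of the 62 loci, 45 had a mean of at least 100 in both stages, and 17 of these were higher and 13 lower. The corresponding counts among the 9067 such loci of the whole table were 2631 higher and 2517 lower. All 10 loci that were admitted by the mature stage only were higher, and 5 of the 7 admitted by the immature stage only were lower. Their direction was largely set by the filter, and the shares over all loci admitted by a single stage were not computed. The 7 loci under the filter comprised 4 with a higher mean in mature samples (ARF5 and 3 SAUR-like loci) and 3 with a lower mean (PIN4, LAX1 and GH3.1).

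**Figure D1:**
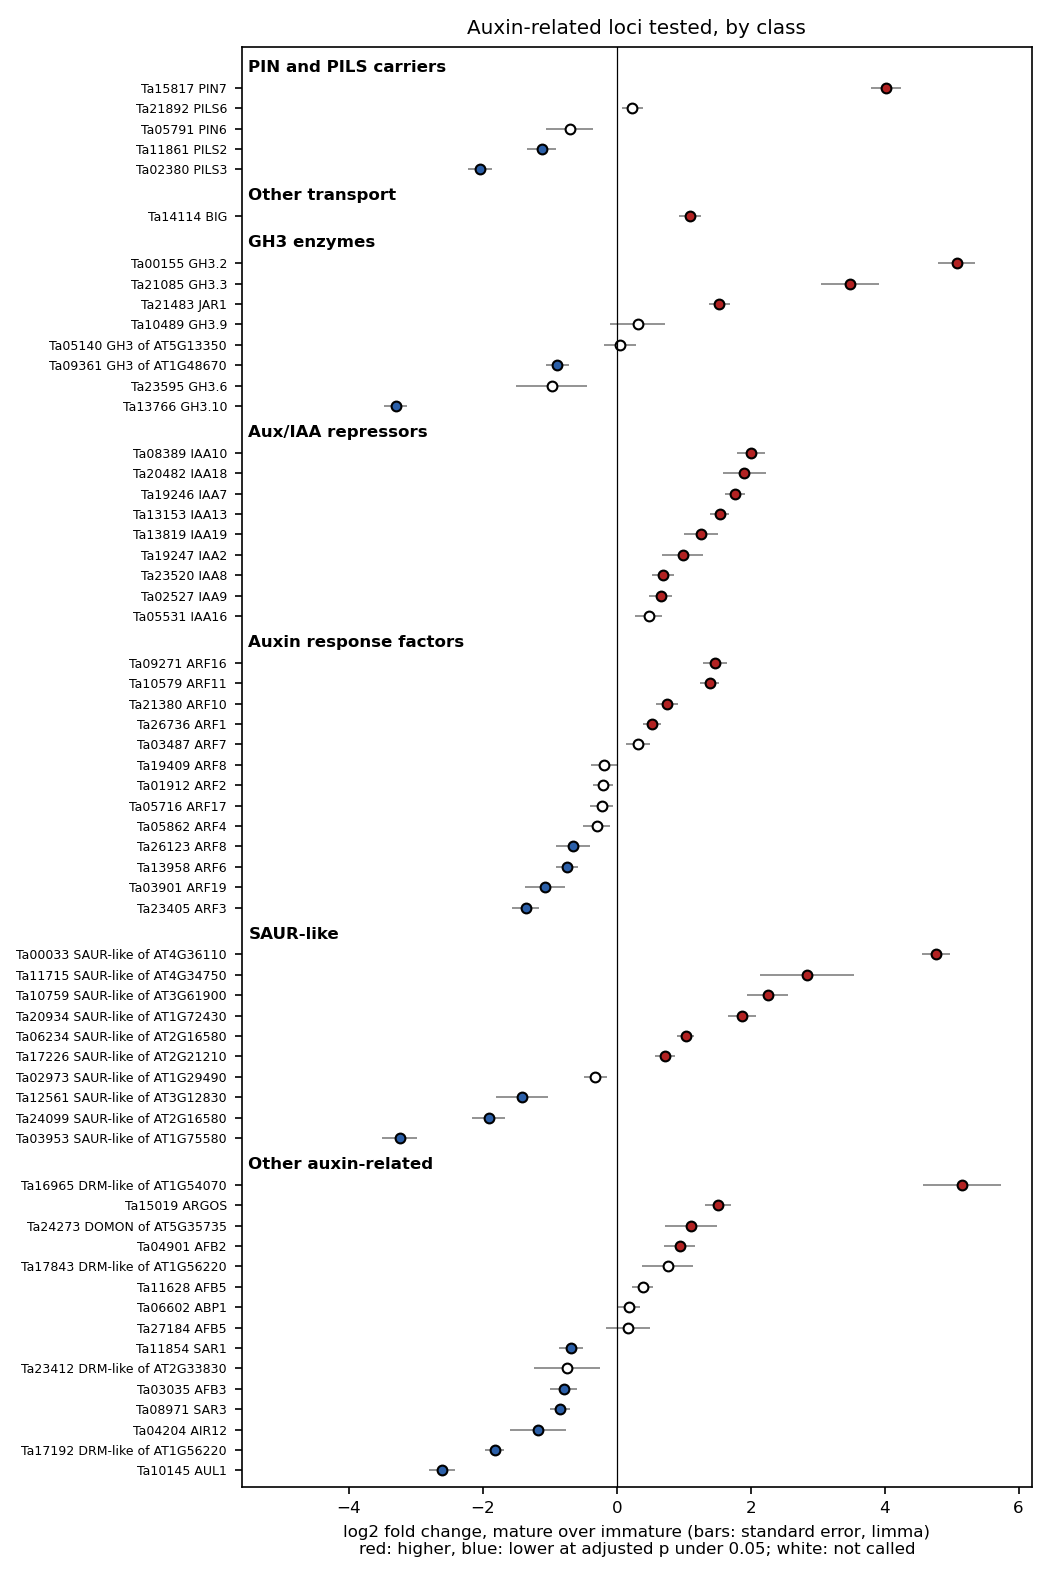
Log2 fold change of auxin-related loci tested, mature over immature, grouped by class (points, with limma standard errors as bars; red is higher, blue lower and white not called). Of the 9 Aux/IAA loci 8 lie to the right of 0 as called and none to the left, whereas the carriers, GH3 enzymes, ARFs and SAUR-like loci have called members on both sides.

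Among the PIN and PILS carriers, PIN7 rose 16.9-fold while PILS2 and PILS3 fell, and 1 of 6 tested carriers was higher and 3 were lower in all. PIN7, which carries auxin out of cells, had 51, 44 and 38 normalized counts in immature replicates 1 to 3 and 579, 1004 and 664 in mature replicates 1 to 3. The stages were far apart at this locus, mature replicate 2 being the highest of the 6 samples. Its log2 fold change was 4.02 ± 0.23 (SE, n = 3 per stage), with a limma adjusted p of 6.15e-06.

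The PILS carriers, which retain auxin in the endoplasmic reticulum, were lower at 2 loci. PILS3 had 680, 750 and 777 normalized counts in immature and 216, 136 and 191 in mature samples, 4.06-fold lower (log2 fold change -2.04 ± 0.19, limma adjusted p = 4.6e-05). PILS2 had 360, 326 and 447 against 230, 152 and 144, 2.15-fold lower (-1.12 ± 0.21, limma adjusted p = 0.00207). At both loci the lowest immature sample exceeded the highest mature one. PILS6, the uncalled carrier with the highest mean, had 268, 222 and 286 against 342, 263 and 307, with overlapping stages and a log2 fold change of 0.23 (95% interval -0.14 to 0.60).

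PIN6, known in Arabidopsis for nectary expression and a link with nectar output, did not pass the test. It had 166, 104 and 231 normalized counts in immature and 147, 72 and 86 in mature samples. The replicates of each stage were spread widely and the stages overlapped (167 ± 63.5 against 102 ± 39.9, SD, n = 3). The log2 fold change was -0.70 ± 0.35 with a 95% interval of -1.51 to 0.10 and a limma adjusted p of 0.11. It passed without immature replicate 2, without mature replicate 1, and after rescaling to the total without ribosomal and organelle RNA or to the upper quartile over loci, and over all its alternatives the adjusted p ran from 0.026 to 0.335. PIN4, under the filter, had 76, 114 and 61 against 42, 49 and 38.

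The 2 remaining transport loci were BIG, a very large protein required for polar auxin transport, and LAX1, an influx carrier of the AUX1 family. BIG had 1480, 1616 and 1811 normalized counts in immature and 3044, 3349 and 4157 in mature samples, 2.15-fold higher with no overlap (log2 fold change 1.10 ± 0.17, limma adjusted p = 0.000676). LAX1 had 89, 68 and 102 against 3, 2 and 3, and was not tested because neither mean reached 100. Every immature value of LAX1 was far above every mature value. The phloem markers moved in the same direction as LAX1, PILS2 and PILS3: SEOR1, a sieve-element filament protein, had 171, 327 and 203 against 3, 14 and 12, while the phloem sucrose carrier SUC2 had 102, 220 and 75 against 87, 70 and 118 and was not called. The part of phloem in these results was not tested.

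**Figure D2:**
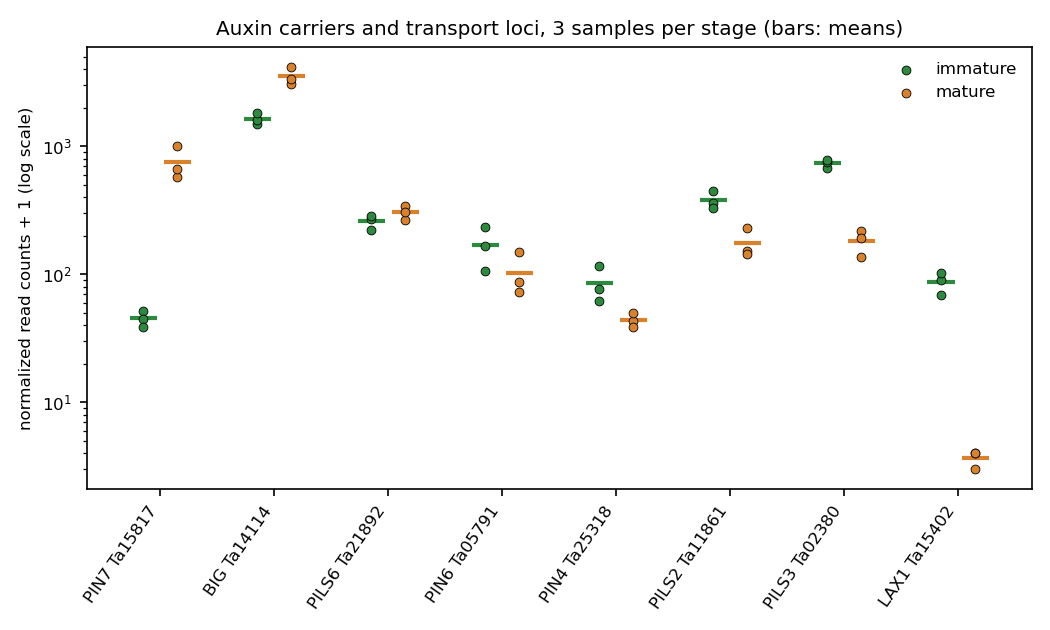
Normalized read counts plus 1 (log axis) of carrier and transport loci in each of the 3 immature and 3 mature samples (points). PIN7 and BIG are higher in every mature sample, LAX1, PILS2, PILS3 and PIN4 are lower in every mature sample, and PIN6 and PILS6 overlap.

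GH3 enzymes join amino acids to auxin or to jasmonate, and GH3.2 and GH3.3 belong to the group that removes free auxin as amino acid conjugates. Of the 8 tested GH3 loci 3 rose and 2 fell. GH3.2 had 220, 223 and 259 normalized counts in immature and 12533, 5705 and 6923 in mature samples. Its mean rose 35.8-fold, from 234 ± 21.7 to 8387 ± 3642 (SD, n = 3; log2 fold change 5.08 ± 0.27, limma adjusted p = 5.4e-06).

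GH3.3 had 509, 523 and 550 against 13161, 3390 and 4668, a rise of 13.4-fold, or 7.64-fold without mature replicate 1 (log2 fold change 3.49 ± 0.43, limma adjusted p = 0.000224). At both loci the immature samples were tightly grouped and mature replicate 1 was the highest. The most abundant contigs of GH3.2 and GH3.3 were variants from the same group in the assembly, so reads could have been assigned to either. GH3.2 and GH3.3 together held 1.73, 1.82 and 1.75% of the summed counts of the 69 loci before secretion and 31.4, 17.0 and 19.5% at the mature stage. The ratio of mature replicate 1 to 2 was 3.88 for GH3.3 and 2.20 for GH3.2. Of the pollen and anther markers, ANX2 was at 3.79 and the others were at 6.39 to 8.77. GH3.3 was thus just above ANX2 and below the others, and GH3.2 was below all of them. The part of pollen or anther RNA in these results was not tested.

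JAR1, the GH3 enzyme that forms the active jasmonate conjugate with isoleucine, rose 2.89-fold. It had 123, 153 and 158 normalized counts in immature and 390, 397 and 468 in mature samples, with no overlap (log2 fold change 1.53 ± 0.16, limma adjusted p = 7.89e-05).

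GH3.10 fell further than any other tested GH3 locus. It had 2286, 2469 and 3019 normalized counts in immature and 313, 235 and 240 in mature samples, a fall of 9.87-fold from 2591 ± 382 to 263 ± 43.7 (SD, n = 3; log2 fold change -3.3 ± 0.17, limma adjusted p = 4.72e-06). A second GH3 locus, Ta09361 (matching AT1G48670), had 425, 381 and 427 against 281, 193 and 200 (log2 fold change -0.89 ± 0.17, limma adjusted p = 0.00233). The stages were separate at both.

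Of the 3 GH3 loci that were not called, GH3.9 and GH3.6 each had a sample far from the rest of its stage. GH3.9, the uncalled GH3 locus with the highest mean, had 980, 740 and 1070 against 2367, 696 and 909, so that mature replicate 1 stood above 5 samples that overlapped (log2 fold change 0.32, 95% interval -0.63 to 1.26). Its ratio of means was 1.42, and 0.863 without that sample. GH3.6 had 280, 324 and 71 against 78, 126 and 86, with immature replicate 3 as low as the mature samples (limma adjusted p = 0.139, and 0.00172 without that sample, over a range of 0.00172 to 0.384 in all its alternatives).

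The locus Ta05140 (matching AT5G13350) summed contigs with different Arabidopsis matches, and their values differed in direction between the stages. Its total was 593, 552 and 630 against 885, 441 and 584 (log2 fold change 0.05 ± 0.24, limma adjusted p = 0.871). The contig matching AT5G13320 (PBS3, a GH3 enzyme needed to make salicylic acid) had 335, 296 and 360 in immature and 14, 0 and 7 in mature samples. The contig matching AT5G13330, described as related to AP2 and not as a GH3 enzyme, had 23, 28 and 11 against 400, 235 and 266. The contig matching AT5G13350 overlapped, with 235, 228 and 259 against 471, 206 and 311. These contig values were not tested apart from the sum.

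**Figure D3:**
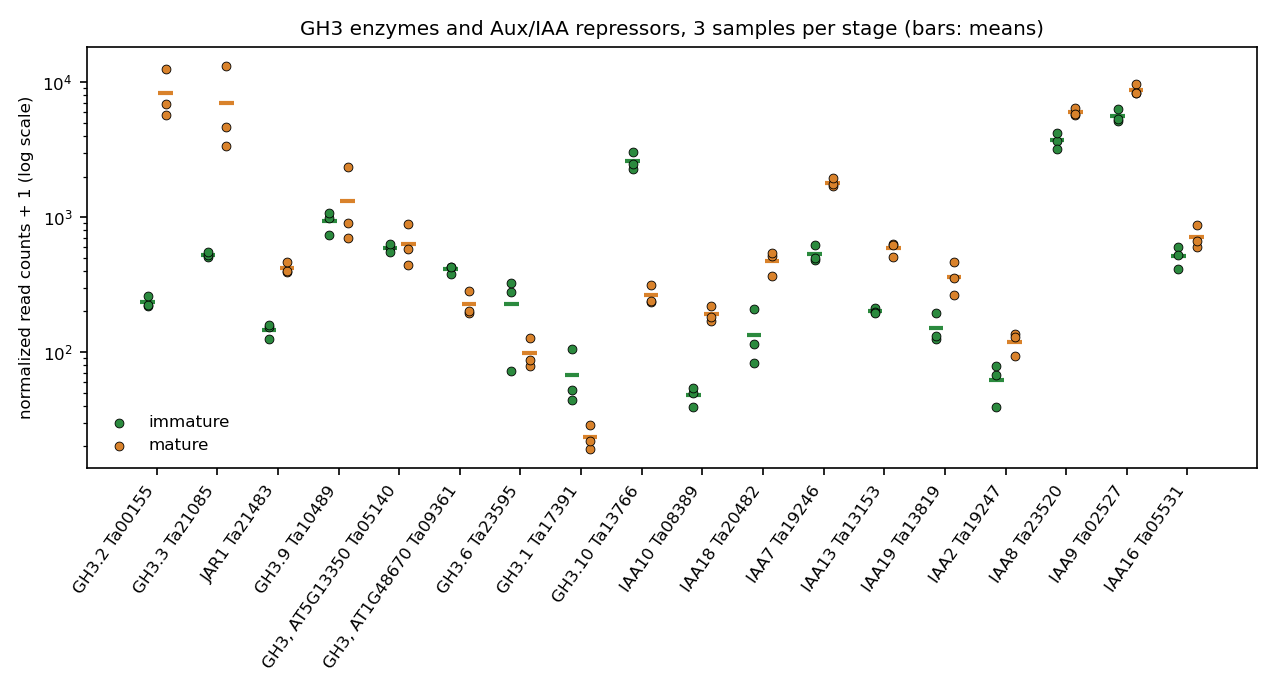
Normalized read counts plus 1 (log axis) of the GH3 and Aux/IAA loci in each of the 3 immature and 3 mature samples (points). GH3.2 and GH3.3 rise 35.8-fold and 13.4-fold while GH3.10 falls 9.87-fold, and 8 of 9 Aux/IAA loci are higher in every mature sample.

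Of the 5 receptor loci in the set, AFB2 was higher, AFB3 was lower, and both AFB5 loci and ABP1 were not called. AFB2 had 465, 396 and 391 normalized counts in immature and 1119, 796 and 576 in mature samples (1.99-fold, log2 fold change 0.94 ± 0.23, limma adjusted p = 0.00768). AFB3 had 701, 622 and 661 against 509, 370 and 295 (-0.79 ± 0.20, limma adjusted p = 0.00866). Neither overlapped between stages, and at both loci mature replicate 1 was the highest mature sample and replicate 3 the lowest.

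The AFB5 locus Ta11628 had 433, 413 and 408 against 549, 650 and 460, which did not overlap but did not pass (limma adjusted p = 0.0544, and 0.0134 to 0.291 over its alternatives, the call being gained without mature replicate 3, after rescaling to the median ratio over loci, and with its most abundant contig alone). The sum of Ta11628 included a contig matching AT4G24390 (AFB4), which was lower in every mature sample, with 103, 99 and 92 against 88, 76 and 56. Its AFB5 contig had 330, 314 and 316 against 461, 574 and 404. The AFB4 contig was not tested apart from the sum. The other AFB5 locus (Ta27184) and ABP1, an auxin-binding protein of the endoplasmic reticulum, overlapped, with log2 fold changes of 0.17 (95% interval -0.60 to 0.94) and 0.18 (-0.23 to 0.58).

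Among the Aux/IAA repressors the called loci of the set were all higher. Of 9 loci, all tested, 8 were higher in mature nectaries, none was lower and 1 was not called, with a median log2 fold change of 1.26. Their summed level was 10191 to 12137 normalized counts in immature and 18031 to 20463 in mature samples. IAA7, known from the auxin-resistant axr2 mutant, had 478, 498 and 617 against 1707, 1766 and 1934, a 3.39-fold rise (log2 fold change 1.77 ± 0.15, limma adjusted p = 3.02e-05).

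IAA10 rose from low values, with 49, 38 and 53 against 218, 169 and 181 (4.06-fold, log2 fold change 2.00 ± 0.21, limma adjusted p = 9.05e-05). IAA18 had 113, 206 and 82 against 366, 514 and 543 (3.55-fold, limma adjusted p = 0.00113). In both, the lowest mature sample exceeded the highest immature one, by a wide margin for IAA10. IAA13 had 210, 197 and 195 against 633, 617 and 508 (2.92-fold, limma adjusted p = 4.29e-05). IAA19, which acts in hypocotyl growth and stamen elongation in Arabidopsis, had 125, 130 and 195 against 354, 265 and 466 (2.41-fold, limma adjusted p = 0.00264).

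The other 3 called Aux/IAA loci rose less, 1.94-fold for IAA2, 1.61-fold for IAA8 and 1.57-fold for IAA9. IAA8 (3690, 3202 and 4233 against 6403, 5695 and 5817) and IAA9 (5163, 5318 and 6311 against 9766, 8276 and 8350) made up most of the summed counts of the class. IAA9 lost its call without immature replicate 1 or 2 and with its most abundant contig alone (limma adjusted p = 0.0105, 0.00179 to 0.126 over its alternatives), and IAA2 lost its call without immature replicate 3 or mature replicate 1 or 2 and after rescaling to the total without ribosomal and organelle RNA (0.0214, 0.00787 to 0.0556). IAA16 had 602, 524 and 413 against 881, 601 and 663, a small overlap in which the lowest mature sample was just under the highest immature one (log2 fold change 0.48 ± 0.20, limma adjusted p = 0.064, 0.0153 to 0.399 over its alternatives). It passed, among others, without mature replicate 2 and after rescaling to the median ratio over loci.

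The ARFs divided evenly in the main test, though not after every rescaling. Of 13 tested loci 4 rose, 4 fell and 5 were not called, with a median log2 fold change of -0.21. After rescaling to the total without ribosomal and organelle RNA, ARF2, ARF4, ARF17 and the ARF8 locus Ta19409 were called lower as well. ARF7 was called higher after rescaling to the median ratio over loci and without mature replicate 2. The 4 that rose were ARF16, ARF11, ARF10 and ARF1. ARF16 had 178, 188 and 225 normalized counts in immature and 682, 461 and 508 in mature samples (2.79-fold, log2 fold change 1.46 ± 0.18, limma adjusted p = 0.00022). ARF11 had 147, 137 and 140 against 413, 389 and 317 (2.64-fold, 1.39 ± 0.15, limma adjusted p = 0.0001).

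ARF10 and ARF1 moved less, though without overlap. ARF10 had 867, 749 and 1060 against 1553, 1383 and 1537 (1.67-fold, limma adjusted p = 0.00376). ARF1 had 254, 238 and 264 against 407, 329 and 359 (1.45-fold, limma adjusted p = 0.00934). ARF17, grouped with ARF10 and ARF16 as targets of the same microRNA family in Arabidopsis, had 857, 790 and 1089 against 896, 717 and 715 and was not called. Its sum included a contig matching ATMG00940, with 130, 120 and 65 against 10, 21 and 18.

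ARF3 (ETTIN), which patterns the gynoecium, fell 2.50-fold, the largest fall of the class. Its immature samples lay within a narrow range at 878, 869 and 862, and its mature samples were 463, 277 and 302 (log2 fold change -1.36 ± 0.20, limma adjusted p = 0.000503). ARF19 had 109, 111 and 146 against 70, 37 and 71 (-1.07 ± 0.29, limma adjusted p = 0.0125), and its call was lost without immature replicate 3 (0.00206 to 0.0514 over its alternatives). The mature samples were below the immature samples in both.

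ARF6 and ARF8, named above for nectaries and flower maturation, were lower at 2 of the 3 loci matched to them. ARF6 had 1050, 1043 and 1125 normalized counts in immature and 748, 515 and 675 in mature samples, 1.66-fold lower with no overlap (log2 fold change -0.75 ± 0.16, limma adjusted p = 0.0043). The ARF8 locus Ta26123 had 1001, 987 and 1173 against 946, 450 and 694 (-0.66 ± 0.25, limma adjusted p = 0.0499). That call was at the threshold: it was lost without any of the 3 immature samples without mature replicate 2 or 3, with a pseudocount of 0.5 and without limma's trend, and the adjusted p ran from 0.00411 to 0.138 over its alternatives.

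The second ARF8 locus, Ta19409, overlapped between stages, with 1153, 1248 and 1395 against 1244, 836 and 1301 (log2 fold change -0.19, 95% interval -0.64 to 0.26). Reads shared between these closely related ARF8 loci could have been assigned to either. Contigs of ARF6 and Ta26123 were also variants from the same group in the assembly, so the falls of ARF6 and Ta26123 may not be independent. ARF2, the uncalled ARF with the highest mean, had 2632, 2665 and 3058 against 2687, 2120 and 2454 (-0.21 ± 0.15, limma adjusted p = 0.269). ARF5 (MONOPTEROS), under the filter, had 34, 23 and 28 against 168, 37 and 72, a ratio of means of 3.26 that became 1.92 without mature replicate 1.

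**Figure D4:**
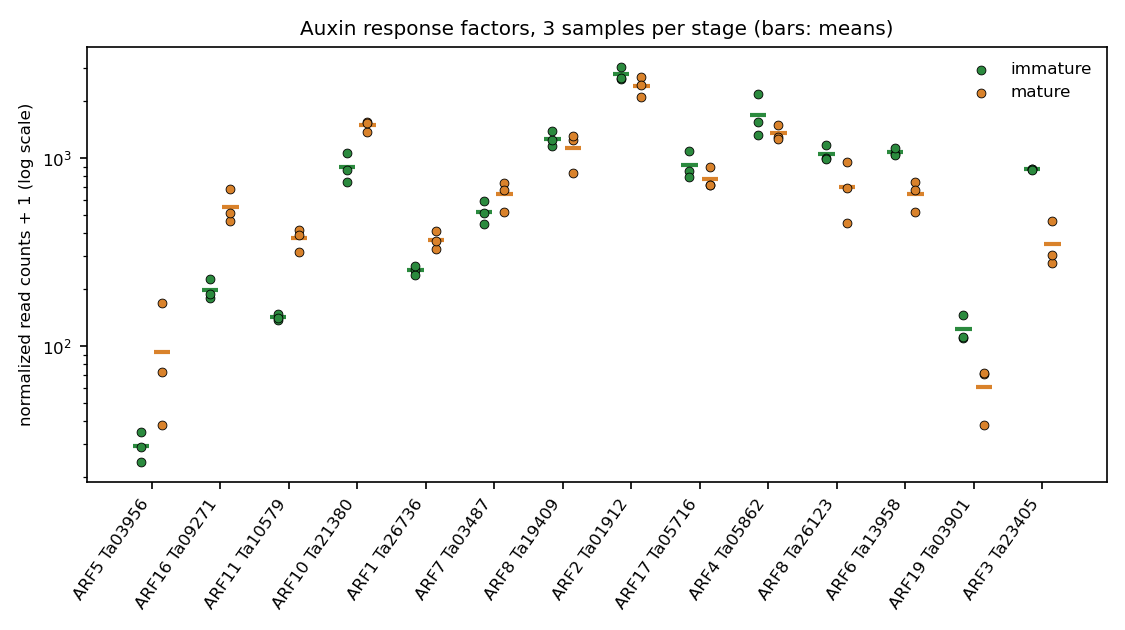
Normalized read counts plus 1 (log axis) of the 14 ARF loci in each of the 3 immature and 3 mature samples (points). ARF16, ARF11, ARF10 and ARF1 are higher and ARF3, ARF6 and ARF19 lower in every mature sample, while ARF2 and the ARF8 locus Ta19409 overlap.

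SAUR proteins are small auxin-induced proteins, several of which promote cell expansion, and the family holds many near-identical copies between which reads may have been split. Of 10 tested SAUR-like loci 6 rose, 3 fell and 1 was not called, with a median log2 fold change of 0.88. The rise of Ta00033 (matching AT4G36110) was the largest of the class. It had 49, 57 and 41 normalized counts in immature and 1036, 1365 and 1732 in mature samples, 28.1-fold higher (log2 fold change 4.77 ± 0.21, limma adjusted p = 3.32e-06), with mature replicate 1 the lowest mature sample.

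Ta11715 (AT4G34750) had 18, 27 and 6 against 284, 58 and 81, 8.29-fold higher but 4.09-fold without mature replicate 1 (limma adjusted p = 0.00772). Ta10759 (AT3G61900) had 25, 23 and 15 against 99, 111 and 96 (4.86-fold, limma adjusted p = 0.000347). The first of these rested on a high mature replicate 1, whereas the mature samples of the second lay close together. Ta20934 (AT1G72430) had 103, 91 and 75 against 324, 412 and 263 (3.71-fold, limma adjusted p = 0.000122).

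Loci matched to AT2G16580 moved in opposite directions. Ta06234 had 343, 352 and 330 against 781, 667 and 656 (2.05-fold higher, log2 fold change 1.03 ± 0.13, limma adjusted p = 0.000235), whereas Ta24099 had 165, 217 and 160 against 41, 64 and 39 (3.76-fold lower, limma adjusted p = 0.00029). The stages were separate at each. The AT2G16580 contig of Ta06234 alone had 225, 222 and 222 against 670, 564 and 537, 2.65-fold higher. Its other contig, described as an unknown protein, had 118, 130 and 108 against 111, 103 and 119. Ta03953 (AT1G75580) fell 9.63-fold, from 221, 193 and 212 to 29, 18 and 18 (log2 fold change -3.24 ± 0.26, limma adjusted p = 2.45e-05).

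Ta12561 (AT3G12830) had 165, 181 and 95 against 90, 47 and 34, and its call was lost without immature replicate 1 (limma adjusted p = 0.0129, 0.00181 to 0.0502 over its alternatives). The uncalled SAUR-like locus, Ta02973, summed 6 contigs to 660, 896 and 688 against 536, 686 and 567 (log2 fold change -0.32). These contigs matched 5 Arabidopsis loci and differed in direction. The contig matching AT1G29450 had 79, 125 and 85 against 170, 313 and 183. Every other contig had a lower mean in mature samples, the largest difference being 69, 107 and 79 against 10, 21 and 12. The contigs were not tested apart from the sum. Among the 3 SAUR-like loci under the filter, Ta03297 had 11, 6 and 5 against 140, 35 and 77, and Ta03484 and Ta26125 also had their highest value in mature replicate 1. Without that sample the ratios of means of Ta03484 and Ta26125 moved from 10.1 to 6.63 and from 5.25 to 3.06.

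The remaining loci share the word auxin in their description rather than a place in the pathway. A rise that rested partly on mature replicate 1 was that of Ta16965 (matching AT1G54070), of the dormancy and auxin associated family, whose Arabidopsis relatives mark dormant buds. It had 9, 16 and 9 normalized counts in immature and 1073, 189 and 376 in mature samples, 48.2-fold higher, or 24.9-fold without that sample (log2 fold change 5.16 ± 0.58, limma adjusted p = 0.00013). Its ratio of mature replicate 1 to 2 was 5.68. That was above the ratio of the pollen marker ANX2 (3.79) and below those of the other pollen and anther markers (6.39 to 8.77).

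Family relatives of that locus went other ways. Ta17192 (AT1G56220) fell 3.55-fold, from 2104, 1990 and 1683 to 597, 495 and 536 (log2 fold change -1.82 ± 0.15, limma adjusted p = 2.58e-05). That sum included a contig matching AT4G25890, a ribosomal protein, with 465, 419 and 308 against 93, 88 and 84. The AT1G56220 contig alone was 3.36-fold lower, with 1639, 1571 and 1375 against 504, 407 and 452. Ta17843, also matching AT1G56220, had 1940, 1355 and 829 against 3598, 1916 and 1541, with overlapping stages (limma adjusted p = 0.111, 0.00375 to 0.337 over its alternatives). Contigs of Ta17192 and Ta17843 were variants from the same group in the assembly, so reads could have been assigned to either. Ta23412 (AT2G33830) had 222, 86 and 65 against 109, 53 and 45 and was not called (limma adjusted p = 0.218, 0.0244 to 0.471 over its alternatives), its ratio of means moving from 0.555 to 0.914 without immature replicate 1.

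ARGOS, which promotes organ growth, rose 2.90-fold, from 70, 64 and 58 to 202, 148 and 207 (limma adjusted p = 0.000288). Ta24273 (AT5G35735, described as an auxin-responsive family protein) had 39, 59 and 34 against 147, 56 and 100 and was called with a small overlap (limma adjusted p = 0.0338, 0.00499 to 0.102 over its alternatives). It lost the call without immature replicate 1 or 3 or mature replicate 3. Of the 2 loci, only ARGOS had separate stages.

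AUL1, which belongs by sequence to auxilin-like proteins of vesicle uncoating, fell 6.09-fold, from 1418, 1363 and 1819 to 308, 202 and 245 (log2 fold change -2.61 ± 0.19, limma adjusted p = 1.69e-05). SAR3 and SAR1, nucleoporins found as suppressors of an auxin-resistant mutant, fell together. SAR3 had 436, 450 and 481 against 257, 216 and 293 (-0.84 ± 0.15, limma adjusted p = 0.00143), and SAR1 had 345, 355 and 403 against 203, 200 and 290 (-0.69, limma adjusted p = 0.00929). All 3 were lower in every mature sample.

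AIR12, a cytochrome of the cell surface induced by auxin in roots, had 1110, 1146 and 1328 against 1099, 284 and 465. Mature replicate 1 was thus level with the immature samples and the others were far below (1.94-fold lower, 3.19-fold without mature replicate 1). Its call (limma adjusted p = 0.0374) was lost without any of the 3 immature samples without mature replicate 2 or 3, or without limma's trend, with a range of 0.000332 to 0.106 over its alternatives.

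Mature samples differed among themselves at part of the set. Of the 27 loci called higher, 17 had their highest value in mature replicate 1, 3 in replicate 2 and 7 in replicate 3, and 13 had their lowest mature value in replicate 2. The matching shares over all loci called higher were not computed. Totals without ribosomal and organelle RNA also ran from 10627997 in mature replicate 1 to 9687397 in replicate 3 and 8400737 in replicate 2. The median ratio of mature replicate 1 to 2 was 1.33 over the tested auxin-related loci and 1.26 over all loci tested. It reached at least 3.79, the lowest value of the pollen and anther markers, at 5 of the 62 tested loci (8.06%), against 2.82% of all loci tested, and at 4 untested loci. These included GH3.3, Ta11715 and Ta16965, which were called higher, AIR12, which was lower, and ARF5, Ta03297, Ta03484 and Ta26125, which were not tested. The limit of 3.79 rests on 1 marker, ANX2. The other markers were at 6.39 to 8.77, and all the loci just named were below 6.39. PIN7 and Ta00033 had ratios of 0.577 and 0.759, with replicate 2 above replicate 1. The part of pollen or anther RNA in the changes of these loci was not tested.

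**Figure D5:**
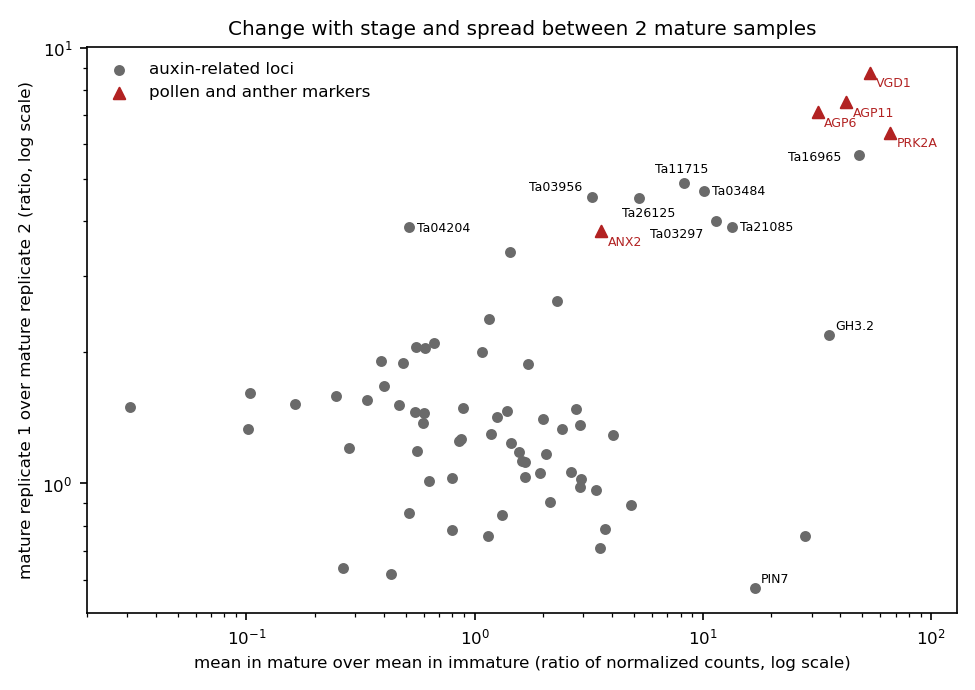
Ratio of mature replicate 1 to mature replicate 2 (log axis) against the ratio of the stage means (log axis) for the auxin-related loci (circles) and the 5 pollen and anther markers (triangles). On the vertical axis the marker ANX2 sits at 3.79 and the other markers at 6.39 to 8.77. GH3.3 (Ta21085), Ta16965, AIR12 (Ta04204) and ARF5 (Ta03956) lie between ANX2 and the others. GH3.2, at 2.20, and PIN7, at 0.577, lie below all the markers.

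The set chosen by the word auxin omits genes of the pathway described in other words. A list of 145 Arabidopsis auxin genes gave 85 genes found as 89 loci, of which 85 were tested, with 28 higher, 21 lower and 36 not called (median log2 fold change 0.17). Outside the 69 loci, the list added 46 loci, of which 11 were higher, 12 lower and 23 not called. Over all loci tested, 28.4% were higher and 35.9% lower, 64.3% in either direction, with a median log2 fold change of -0.09. Both the list and its added loci were thus called less often than loci in general. Of 20 genes listed for synthesis 4 were found, and no YUCCA enzyme was among them, nor were the nitrilases NIT1 and NIT2. Since every contig in the table reached 101 or more normalized counts in at least 1 sample, a gene that was not found may have been under such a limit.

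The 4 loci found from the synthesis list were all called, 2 in each direction. Whether each takes part in auxin synthesis was not tested. TAR2, the aminotransferase that starts the main route from tryptophan, had 83, 91 and 117 against 439, 475 and 337, 4.30-fold higher (limma adjusted p = 4.9e-05). NIT4, in that list as a nitrilase, had 435, 354 and 587 against 1998, 908 and 1615, 3.29-fold higher (limma adjusted p = 0.00166). Neither overlapped between stages.

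The loci that fell were AMI1, an amidase of indole-3-acetamide, and CYP79B2, which converts tryptophan to indole-3-acetaldoxime, a step it shares with indole glucosinolate synthesis. AMI1 had 215, 193 and 290 against 58, 49 and 30, 5.09-fold lower (limma adjusted p = 0.000183). CYP79B2 had 268, 313 and 325 against 14, 0 and 1, 60.4-fold lower (log2 fold change -6.60 ± 0.90, limma adjusted p = 0.000367). Without mature replicate 1 its mature values were below a floor of 3 normalized counts, above which the immature mean was at least 100-fold higher.

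Of the influx carriers in the list, AUX1 was found outside the set and missed the threshold, with 1727, 2264 and 1650 against 1448, 1457 and 1308 (log2 fold change -0.41 ± 0.16, limma adjusted p = 0.0543, 0.0251 to 0.221 over its alternatives, the call being gained, among others, without immature replicate 3, after rescaling to the total without ribosomal and organelle RNA, and with its most abundant contig alone). Of the receptors, AFB1 fell 2.69-fold, from 613, 655 and 708 to 248, 265 and 221 (limma adjusted p = 5.37e-05). TIR1 overlapped, with 899, 942 and 1366 against 1002, 638 and 774 (-0.41 ± 0.22, limma adjusted p = 0.139), and it passed without mature replicate 1 and after rescaling to the total without ribosomal and organelle RNA or to the upper quartile over loci (0.011 to 0.396 over its alternatives).

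Other loci of the list were singled out after their values were seen. IAA4 rose 5.52-fold, from 329, 318 and 293 to 1474, 2081 and 1636, whereas IAA27 fell 5.14-fold, from 173, 93 and 130 to 34, 29 and 14 (limma adjusted p = 1.03e-05 and 0.00103). With these, 9 of the 12 Aux/IAA loci of the list were higher, 1 was lower and 2 were not called. The efflux transporter ABCB19 fell 8.55-fold, from 416, 407 and 613 to 73, 51 and 44 (limma adjusted p = 2.28e-05).

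Of the kinases that act on PIN proteins, PID (PINOID) fell 3.16-fold, from 208, 277 and 322 to 113, 62 and 80, and D6PKL3 rose 3.3-fold, from 170, 259 and 244 to 688, 745 and 785 (limma adjusted p = 0.000669 and 8.75e-05). DAO2, a dioxygenase of the family that oxidizes auxin, fell 10.3-fold, from 546, 622 and 620 to 62, 60 and 51 (limma adjusted p = 3.29e-06). The stages did not overlap at any of these 6 loci.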

How the data were processed

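RNA-seq reads of 50 bases had been assembled per stage by the authors and merged with an earlier transcriptome, reads were assigned to contigs with blastn (E-value cutoff 1e-05), and Arabidopsis names came from BLASTP matches. The deposited values are a score, namely read counts per contig after upper-quartile normalization by the authors, rounded to whole numbers, so no count model was applied. The table holds 16074 contigs, of which 617 have no locus and were left out of the tests. The authors' mean, SD, ratio and p-value columns and a second sheet of new loci were not used.

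Contigs were summed per predicted protein. log2(sum + 1) was tested, at loci whose mean reached 100 in either stage, with limma 3.58.1 in R 4.3.3 (mean-variance trend, 3 against 3 samples, Benjamini-Hochberg adjusted p under 0.05), and the procedure was tested on simulated data. An exact permutation test of 3 against 3 samples cannot give a two-sided p under 0.1 and was not used. Fold changes are ratios of mean normalized counts. Depth per sample is given as normalized totals, and no counting interval is given since raw reads were not analysed. Members and gene lists were chosen with earlier results of these data known. Per-sample values are given for the 5 largest called changes per direction and class, for PIN6, ARF6 and ARF8, and for the uncalled member with the highest mean in each class; further loci are named where a count, a contig or a sample stands out. Alternatives changed the pseudocount, filter, scaling, contig choice, limma settings, replicate block and samples used. A carrier locus that enters the counts is not reported here by name or value.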

Additional observations from a re-analysis of the deposited data

Results flagged for a closer look

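A contig matching AT2G33830, of the dormancy and auxin associated family, was placed in no locus and so entered no comparison. Its mean over the 6 samples was 100.3 normalized counts, with 246, 122 and 54 in immature and 79, 62 and 39 in mature samples. The stages overlapped, and immature replicate 1 was the highest, as it was at Ta23412, the locus with the same Arabidopsis match (222, 86 and 65 against 109, 53 and 45). The difference was not tested.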

How the results depend on the processing

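No result reversed under any alternative, all 45 called auxin-related loci kept their sign, and 38 of them were called in every alternative that gave them a value. With the filter raised to a mean of 500, fewer loci were tested: of 35 auxin-related loci 15 were then higher and 9 lower (pathway list 18 and 10 of 51, all loci 1856 and 1566 of 4954). The median log2 fold change was then 0.39 for the auxin-related loci and 0.11 for all loci, a difference of 0.27 against 0.40 with the filter at 100. Keeping the filter at 100 and requiring more than a 2-fold change gave 20 and 11 (pathway list 17 and 15, all loci 1629 and 2715). Rescaling to the total without ribosomal and organelle RNA shifted the median of all loci by -0.17 on the log2 scale and gave 24 higher and 23 lower, and rescaling to the median ratio shifted it by 0.12 and gave 31 and 18; relative to that median the auxin-related loci stood at 0.38 and 0.39, against 0.40 without rescaling. Over all loci these rescalings gave 2982 and 5254, and 4145 and 4066, against 3348 and 4225. Leaving out each sample in turn gave 24 to 31 higher and 15 to 19 lower. Deviations of same-numbered samples correlated at -0.07, 0.01 and 0.20, and those of differently numbered samples at -0.18 to 0.19. With 3 samples per stage this cannot settle whether the replicate numbers pair the samples. A replicate block gave 29 higher and 20 lower (all loci 3454 and 4320), adding the calls of PIN6, IAA16, Ta17843 and Ta23412 and, outside the set, that of AUX1. The normalized values hide the read depth, and values of a few counts in mature replicate 2 are limited by its step of 1.95.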
